A study of Rattus norvegicus with 16 samples.

Results

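Hippocampal RNA levels were compared between rats sampled 30 days and 15 days after an infusion of iron into the amygdala, the chronic and the sub-chronic phase of this injury by the labels. The comparison used the 4 arrays labelled lesioned at day 30 and the 4 labelled lesioned at day 15, which are 8 of the 16 arrays of the study, chosen by their titles. They are called Fe day 30 and Fe day 15 here. Each array held the RNA of 1 right hippocampus, labelled with the dye Cy3 and hybridised alone to an Agilent rat array.

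All rats of both groups were male Wistar rats that had a guide cannula placed over the right amygdala at 5 weeks of age. After a further 5 days they received 1.0 µl of 100 mM ferric chloride (FeCl3) in saline at pH 2.2. The remaining arrays of the study held 4 rats killed 5 days after iron, which were not used here, and 4 control rats that received saline at pH 2.2 and were killed on day 15. The control values are given below as the background level. No saline group was sampled at day 30, and the Fe day 30 rats were 15 days older than the Fe day 15 rats, so that age and time since iron cannot be told apart. The series text states that the iron rats had recurrent seizures, that seizure frequency was not measured, and that the saline rats had none.

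Iron salts released from blood catalyse the oxidation of membrane lipids, and an iron deposit in the amygdala of a rat sets off seizures that recur and spread through the limbic system. The hippocampus receives input from the amygdala and is a main site of limbic seizures. Neuronal firing induces immediate early genes and neuropeptides there, seizures alter the birth of neurons in the dentate gyrus, and glia and blood vessels take part in the response to injury.

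All levels below are the log2 of the processed signal minus the 75th percentile of the array, so that 0 is the 75th percentile and a difference of 1 is a doubling. Across the 8 arrays that percentile ran from 596 to 873 units of intensity, and 74.7% to 78.4% of the transcript spots were well above background. Arrays of the same group correlated at 0.982 to 0.992 (Pearson's r across genes, which are not independent replicates) at Fe day 15 and at 0.978 to 0.993 at Fe day 30. Precision is limited by the number of arrays. The tissue carried the markers of hippocampus on every one of these arrays. Among them were C1ql2 of dentate granule cells at 2.69 to 3.51, Wfs1 of CA1 pyramidal cells at 0.48 to 2.99 and Grik4 of CA3 pyramidal cells at 0.51 to 1.53.

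One array of each group stood apart from the rest. On Fe day 30 replicate 3 Ttr, the thyroxine carrier that choroid plexus epithelium makes in large amounts, stood at 7.78, against -2.25 to 1.80 on the other 7 arrays. The potassium channel Kcnj13 stood at 3.44 on it, against -5.84 to -3.36, and the chloride channel protein Clic6 at 1.28, against -6.38 to -4.52. The score of a gene list on an array, which is the median over its members of the level minus the control mean, was 5.56 there for 17 choroid plexus markers and 3.15 for 26 markers of meninges and fibroblasts. Fe day 15 replicate 4 had a microglia and macrophage score of 1.02 and an interferon score of 1.42, against -0.20 to -0.16 and -0.41 to 0.31 on the other Fe day 15 arrays. Fe day 30 replicate 3 had scores of 1.14 and 1.28 for these lists, against -0.31 to 0.08 and -0.22 to -0.13 on the other Fe day 30 arrays. The slides, each with its own scan, held both days in 2 cases. Slide 2 held Fe day 15 replicate 1 and Fe day 30 replicate 3, and slide 3 held Fe day 15 replicate 2 and Fe day 30 replicate 4. The plot of list medians gives every list without both arrays, and the text gives that value for lists where it bears on what is said.

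**Figure D1:**
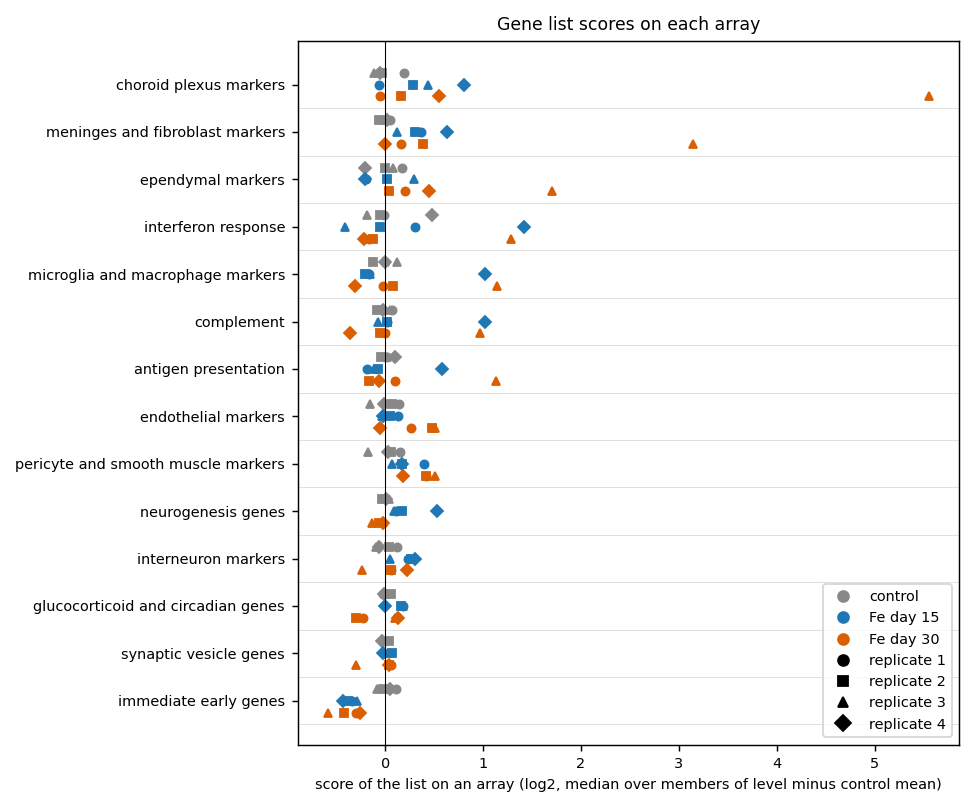
Scores of 14 gene lists on each array, in log2 units above the control mean (median of the members), for 4 control, 4 Fe day 15 and 4 Fe day 30 arrays; the marker shape gives the replicate. Fe day 30 replicate 3 lies far to the right for choroid plexus (5.56) and meninges (3.15), and Fe day 15 replicate 4 lies beside it for the microglia (1.02 and 1.14) and interferon lists (1.42 and 1.28).

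No gene passed the test between the 2 days. Of 27441 features tested, 9459 of them genes with a symbol and the rest probes without one, 0 (0.0%) had a Benjamini-Hochberg adjusted p under 0.05 in limma, and the lowest adjusted p was 0.968. At an unadjusted p under 0.05 there were 1353 features (4.93%), of which 618 (2.25%) were higher and 735 (2.68%) were lower at Fe day 30. The 4 values of one day lay wholly above the 4 of the other for 390 features (1.42%) with the higher values at Fe day 30 and for 525 (1.91%) with the higher values at Fe day 15, together 3.33%. The median difference over all features was -0.01, and the mean was higher at Fe day 30 for 47.0% of them. The p-values were spread evenly, with 1295 to 1452 features in each bin of 0.05.

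**Figure D2:**
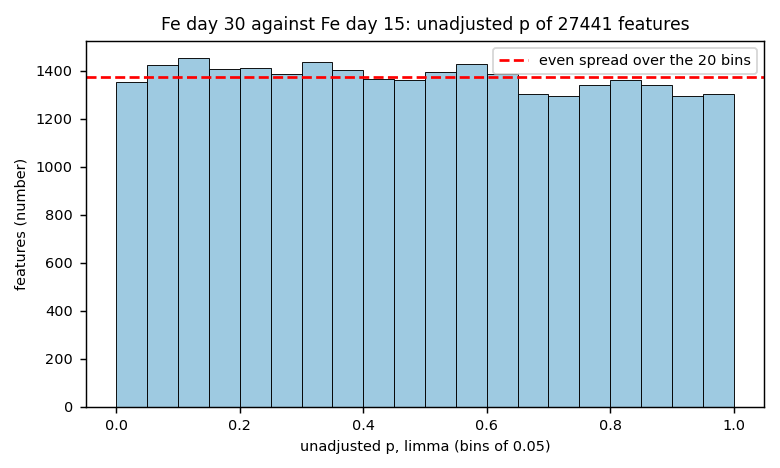
Number of features in each bin of 0.05 of the unadjusted p from limma, for Fe day 30 against Fe day 15 over 27441 features; the dashed line is the number an even spread would put in each bin. The lowest bin holds 1353 features, under the 1372 of the even spread.

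The size of the differences that the data allow can be read from their intervals. The 95% interval of the difference lay within a 2-fold change in either direction for 90.2% of the features, and within a 1.5-fold change for 70.9%. Simulated data had the same size and spread, with 200 genes altered by known folds. The test recovered 24% of the 1.5-fold, 66% of the 2-fold, 90% of the 4-fold and 96% of the 8-fold differences, and called 3 unchanged genes. The noise was drawn independently for each gene from its measured spread, without shifts shared by a whole array. Recovery in the real data may therefore be lower. A p that misses the threshold does not show that a gene stood at one level on both days. Without both arrays that stood apart the count of called features was again 0, 1307 (4.76%) were higher and 943 (3.44%) lower at an unadjusted p under 0.05, and the mean was higher at Fe day 30 for 52.0%. Without Fe day 30 replicate 3 alone these shares were 3.98%, 3.0% and 52.3%, and no feature was called. With the slide as a term of the fit 0 features were called, 538 were higher and 508 lower at an unadjusted p under 0.05. That fit compares the days only within slides 2 and 3, which leaves almost no freedom to estimate the spread. Its count of called features therefore says little.

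The genes that follow are given as values that did not pass the threshold. Each has an adjusted p of 0.968 by limma with Benjamini-Hochberg adjustment. They are the 12 named genes in each direction with the lowest unadjusted p among those whose groups did not overlap, and the direction of each followed from that choice.

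Among the genes with higher values at Fe day 30 was Socs1, the suppressor of cytokine signalling that shuts off JAK kinases. It stood at -5.01, -4.88, -4.91 and -4.94 on the Fe day 15 arrays and at -4.46, -4.28, -4.22 and -4.31 on the Fe day 30 arrays, a difference of 0.62 ± 0.08 (SE, n = 4 and 4). A gap that is wide against the spread within each day followed from the choice by lowest p. The control mean of -4.72 lay between the days. Pdgfrb, the receptor by which pericytes answer platelet-derived growth factor, stood at -0.57, -0.84, -0.60 and -0.38 at Fe day 15 and at 0.03, -0.04, 0.06 and -0.18 at Fe day 30, a difference of 0.56 ± 0.11. Its control mean was -0.45, near the Fe day 15 values.

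Pdyn encodes the precursor of dynorphin, the opioid peptide of dentate granule cells and mossy fibres. It stood at 2.99, 3.07, 2.98 and 2.37 at Fe day 15 and at 3.84, 3.94, 3.54 and 3.38 at Fe day 30, a difference of 0.82 ± 0.19. The lowest value was that of Fe day 15 replicate 4, and without both arrays that stood apart the difference was 0.71. The control mean was 3.32, between the days.

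Filip1, a filamin-binding protein of migrating neurons, stood at -1.46, -1.36, -1.33 and -1.34 at Fe day 15 and at -0.79, -0.92, -1.08 and -0.83 at Fe day 30, a difference of 0.47 ± 0.09. The control mean of -0.85 was that of the Fe day 30 arrays within their spread, and the second probe of Filip1 differed by 0.25. Dus2, which forms dihydrouridine in transfer RNA, differed by 0.55 ± 0.10, Anapc1, the largest subunit of the anaphase-promoting complex, by 0.41 ± 0.08, and Slc7a6os by 0.37 ± 0.08. Chd1l, a chromatin remodeller recruited to DNA damage, differed by 0.76 ± 0.18, Ctla2a by 0.50 ± 0.12 and the olfactory receptor gene Or2b11 by 1.12 ± 0.27.

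A pair of dim genes completed the 12. Tnfrsf14, the herpesvirus entry mediator of the tumour necrosis factor receptor family, was well above background on 1 of 4 Fe day 15 arrays and 4 of 4 Fe day 30 arrays, with a difference in measured signal of 0.96 ± 0.17 that rests on Fe day 15 values mostly at the level of the background. Rnf151, a RING finger gene, was well above background on 0 of 4 and 4 of 4 arrays. It stood at a mean of -6.96 at Fe day 15 and -6.16 at Fe day 30. The Fe day 30 mean was 1.30-fold higher when the lowest signal well above background on each Fe day 15 array replaced a lower one. Both genes were tested only because they were above background at Fe day 30, so these sizes are uncertain.

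Among the genes with lower values at Fe day 30 was Dpysl5, a collapsin response mediator protein of growing axons in young neurons. It stood at -2.12, -2.001, -2.44 and -1.77 at Fe day 15 and at -2.70, -2.70, -2.79 and -2.67 at Fe day 30, a difference of -0.63 ± 0.14. The Fe day 30 values were tightly grouped around the control mean of -2.64, and the Fe day 15 values all lay above it. The peptide transporter gene Slc15a4 had the same order, with 1.65, 1.81, 1.78 and 1.56 at Fe day 15, 1.38, 1.30, 1.33 and 1.40 at Fe day 30 and a control mean of 1.37, a difference of -0.35 ± 0.08.

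Kcnj12, an inward rectifier potassium channel, stood at 2.80, 2.24, 2.11 and 2.43 at Fe day 15 and at 1.92, 1.67, 1.51 and 1.80 at Fe day 30, a difference of -0.67 ± 0.16, and its control mean of 2.05 lay between. The glycine receptor subunit Glra2 differed by -0.48 ± 0.12, the nitric oxide receptor subunit Gucy1a2 by -0.42 ± 0.09 and the cell adhesion gene Cadm4 by -0.37 ± 0.09. Sv2c, a synaptic vesicle glycoprotein, was well above background on 4 of 4 arrays at Fe day 15 and 1 of 4 at Fe day 30, and its measured signal differed by -0.86 ± 0.20.

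The other genes with lower values at Fe day 30 had less in common. The protocadherin Pcdhb6 was well above background on 4 of 4 arrays at Fe day 15 and 1 of 4 at Fe day 30, and its measured signal differed by -1.61 ± 0.27. The muscle myosin light chain Myl3 had the same detection and a difference of -1.46 ± 0.37. Both, like Sv2c, were tested only because they were above background at Fe day 15, and most of their Fe day 30 values lay at the level of the background, so these sizes are uncertain. Prr5, a subunit of mTOR complex 2, stood at -3.67, -3.70, -3.76 and -4.31 at Fe day 15 and at -4.45, -4.80, -4.50 and -4.65 at Fe day 30. Its difference was -0.74 ± 0.16, and the lowest Fe day 15 value was that of replicate 4. The death ligand Faslg differed by -0.43 ± 0.10. Dok3, an adaptor that restrains signalling in leukocytes, stood between -1.64 and -1.495 at Fe day 15 and between -2.68 and -1.89 at Fe day 30, against a control mean of -2.55.

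**Figure D3:**
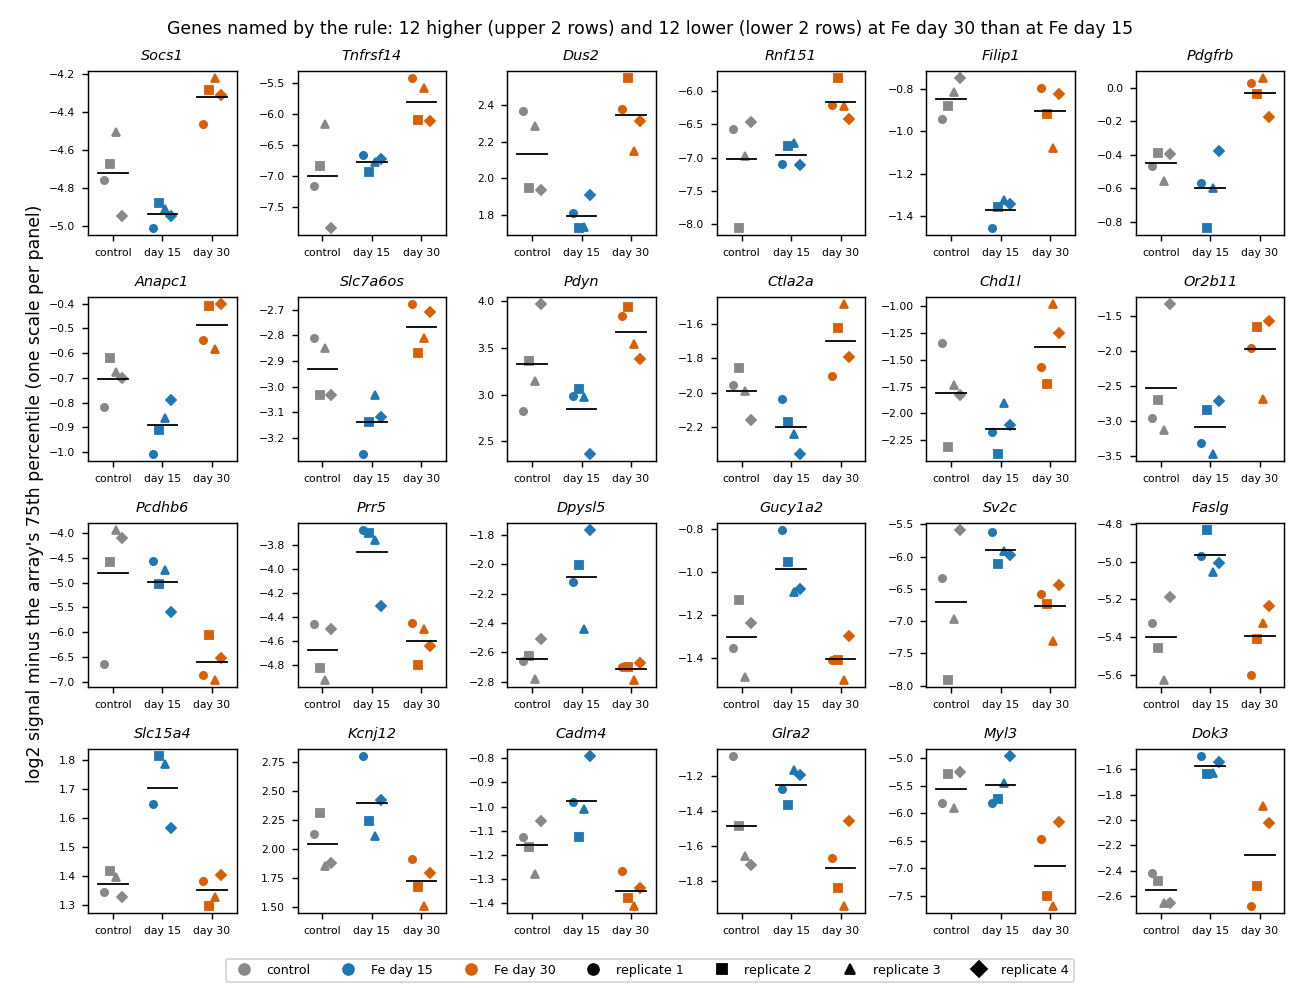
Level of the 24 genes named by the rule on each array (log2 signal minus the 75th percentile, 1 scale per panel), for control, Fe day 15 and Fe day 30; points are arrays, the marker shape is the replicate and bars are means. The groups of the 2 Fe days do not overlap in any panel, as the rule required; the control mean is closer to the Fe day 30 mean in 4 of the 12 upper and 8 of the 12 lower panels.

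Genes were then read by function and cell type in 44 lists with 936 distinct measured members, of which 27 (2.88%) were higher and 18 (1.92%) lower at an unadjusted p under 0.05. These shares were near the 2.25% and 2.68% of all features. None of these members passed the adjusted threshold. In bulk tissue, fewer cells of a type and less RNA per cell cannot be told apart, and genes of 1 cell type move together, so the members of a list are not independent. The neurogenesis list was the single one whose scores on the 4 Fe day 30 arrays lay wholly to one side of those on the 4 Fe day 15 arrays. It is 1 of 44 lists (2.27%), beside 3.33% of single features whose groups did not overlap.

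Of 15 measured members of the neurogenesis list, 12 had a lower mean at Fe day 30, and 4 were lower at an unadjusted p under 0.05, against 2.68% of all features. The median difference was -0.19, against -0.01 over all features. The score ran from 0.09 to 0.53 at Fe day 15, from -0.13 to -0.02 at Fe day 30 and from -0.03 to 0.04 in the controls. The highest score, 0.53, was that of Fe day 15 replicate 4. Without both arrays that stood apart the median was -0.15. In that fit 4 members were lower at an unadjusted p under 0.05, against 3.44% of all features. Within slides 2 and 3 the median differed by -0.16 and -0.18.

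The 4 members of lowest p were Dpysl5, given above, and Dpysl3, Sox11 and Calb2. Dpysl3, a relative of Dpysl5, stood at -1.21, -1.34, -1.44 and -0.9999 at Fe day 15 and at -1.57, -1.68, -1.43 and -1.61 at Fe day 30, a difference of -0.33 ± 0.11. Sox11, a transcription factor of immature neurons, stood at -3.38, -3.93, -3.79 and -3.19 and then at -4.25, -4.07, -3.78 and -4.56, a difference of -0.59 ± 0.21 with groups that overlapped. Calb2, the calcium-binding protein calretinin of immature granule cells and of interneurons, stood at 3.97, 2.01, 1.85 and 2.28 at Fe day 15 and at 1.49, 1.57, 1.60 and 1.56 at Fe day 30. Its difference was -0.97 ± 0.42, and the value of 3.97 belonged to Fe day 15 replicate 1. Of 17 cell cycle genes, 8 had a higher mean at Fe day 30, the median was -0.05, and none had an unadjusted p under 0.05.

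Neuropeptides and other late products of neuronal activity differed in both directions. Of 25 members, 7 had a higher mean at Fe day 30, 2 were higher and 4 lower at an unadjusted p under 0.05, against 2.25% and 2.68% of all features, and the median was -0.15. Pdyn was higher, as given above. Tac1, the precursor of substance P, stood at 2.20, 0.28, -0.15 and 1.05 at Fe day 15 and at -0.28, -0.29, -0.73 and -0.22 at Fe day 30, a difference of -1.23 ± 0.46 with a control mean of -0.64. The Fe day 15 values spanned a wider range than the distance between the means. Inhba, a subunit of activin, differed by -0.51 ± 0.18 and Cck, the precursor of cholecystokinin, by -0.33 ± 0.12. Without both arrays that stood apart, 3 members of the list were higher and 0 lower at an unadjusted p under 0.05. The shares over all features in that fit were 4.76% and 3.44%, and the list median was -0.07.

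Immediate early genes, which neurons transcribe within minutes of firing, had a median difference of -0.04 over 25 members, and of 0.07 without Fe day 30 replicate 3. Their score lay below 0 on all 8 iron arrays, at -0.44 to -0.29 at Fe day 15 and at -0.59 to -0.26 at Fe day 30, against -0.09 to 0.10 in the controls. The members Dusp1, Btg2 and Ier2 were higher at Fe day 30 at an unadjusted p under 0.05, against 2.25% of all features, and none was lower. Without both arrays that stood apart 3 members were higher and 2 lower at that p, against 4.76% and 3.44% of all features. The list median was then 0.005. Dusp1, a phosphatase that switches off MAP kinases, stood at -0.57, -0.56, -1.04 and -0.69 and then at -0.44, -0.28, -0.48 and -0.34, a difference of 0.33 ± 0.12. Btg2, which slows cell division, stood at 0.37 to 0.62 at Fe day 15 and at 1.30, 1.47, 0.55 and 0.81 at Fe day 30, a difference of 0.52 ± 0.20 with groups that overlapped. The difference of Ier2 was 0.32 ± 0.14, and that of the nuclear receptor Nr4a2 was -0.47 ± 0.22.

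Interneuron markers had lower means at Fe day 30 in 12 of 13 members, with a median of -0.17. The members lower at an unadjusted p under 0.05, against 2.68% of all features, were Tac1 and Calb2, which other lists also hold. None was under it without both arrays that stood apart. The median was -0.06 without Fe day 30 replicate 3 alone and -0.12 without both arrays. It was -0.48 within slide 2, which held that replicate, and -0.01 within slide 3. Sst, the precursor of somatostatin, differed by -0.40 ± 0.18, and Slc32a1, which loads GABA into vesicles, by -0.19 ± 0.10. The score ran from 0.05 to 0.30 at Fe day 15, from -0.23 to 0.23 at Fe day 30 and from -0.10 to 0.12 in the controls, and the lowest value was that of Fe day 30 replicate 3.

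Principal cell markers differed less between the days than between the arrays of a day. Wfs1 stood at 2.37, 2.05, 2.80 and 1.62 at Fe day 15 and at 1.49, 0.92, 0.48 and 2.99 at Fe day 30, a difference of -0.74 ± 0.52, and Fe day 30 replicate 4 was the highest of all 8. The CA1 and subiculum list had a median of -0.10 over 10 members, and none had an unadjusted p under 0.05. In the CA3 list Grik4, a kainate receptor subunit, differed by 0.44 ± 0.19, and the median was 0.01 over 11 members. The median over 6 dentate markers was 0.23, with C1ql2 at 0.33 ± 0.17 and the channel gene Trpc6 at 0.38 ± 0.18.

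Transmission and excitability lists had small medians with all arrays. They were -0.02 over 23 glutamate genes, -0.03 over 21 GABA genes, -0.05 over 36 voltage-gated channels and -0.03 over 27 synaptic vesicle genes. With the slide as a term of the fit, which compares the days within slides 2 and 3 alone, these medians were lower. They were -0.19, -0.14, -0.19 and -0.17, against -0.03 over all features. Within slide 2, which held Fe day 30 replicate 3, they were -0.23, -0.25, -0.37 and -0.27, and within slide 3 they were 0.01, 0.03, 0.02 and -0.05. Cacna1g, a T-type calcium channel, stood at -1.10, -0.93, -1.52 and -0.78 at Fe day 15 and at -1.43, -1.52, -1.71 and -1.69 at Fe day 30, a difference of -0.51 ± 0.16 with a control mean of -1.67. The groups overlapped by 1 Fe day 15 array. The R-type channel Cacna1e differed by -0.33 ± 0.12 and the L-type channel Cacna1c by 0.27 ± 0.12. Sv2a, the synaptic vesicle protein that levetiracetam binds, stood at 4.21, 3.96, 3.94 and 4.12 and then at 3.82, 3.76, 3.62 and 3.93, a difference of -0.27 ± 0.10, beside a control mean of 3.88.

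Of 20 endothelial markers, 17 had a higher mean at Fe day 30. None passed the adjusted threshold, and 5 were higher at an unadjusted p under 0.05, against 2.25% of all features. The median was 0.26, and 0.16 without both arrays that stood apart. There 2 members were higher and 1 lower at that p, against 4.76% and 3.44% of all features. The score ran from -0.05 to 0.51 at Fe day 30, from -0.04 to 0.13 at Fe day 15 and from -0.16 to 0.14 in the controls. It was lowest on Fe day 30 replicate 4, level with the lowest Fe day 15 arrays, and within slides 2 and 3 the median differed by 0.36 and -0.01.

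Kdr, the main receptor for vascular endothelial growth factor, stood at 1.67, 0.87, 1.06 and 1.75 at Fe day 15 and at 2.11, 2.49, 2.36 and 1.62 at Fe day 30, a difference of 0.81 ± 0.26 with a control mean of 1.81. Tek, the angiopoietin receptor, stood at -4.05, -4.07, -4.15 and -4.13 and then at -3.57, -3.56, -3.55 and -4.08, a difference of 0.41 ± 0.13. In Tek, 3 of the 4 Fe day 30 arrays lay clear of Fe day 15, and replicate 4 lay among them. Pecam1, an adhesion protein of endothelial junctions, differed by 1.06 ± 0.37, and the transcription factor Ets1 by 0.31 ± 0.12. Of 17 pericyte and smooth muscle markers, 15 had a higher mean at Fe day 30, with a median of 0.22. The median was 0.06 without both arrays, 0.63 within slide 2 and 0.02 within slide 3. Beside Pdgfrb, Pln, a regulator of the calcium pump in muscle cells, differed by 0.40 ± 0.16, while Lmod1, an actin nucleator of smooth muscle, differed by -0.58 ± 0.26. The choroid plexus and meninges scores were highest on Fe day 30 replicate 3, and the part of such tissue in the vascular values was not tested beyond leaving that array out.

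The medians of the choroid plexus, meninges and extracellular matrix lists were set by Fe day 30 replicate 3. The choroid plexus list had a median of 0.99 over 17 members with 16 higher, and of 0.03 without both arrays. Folr1, the folate receptor of that epithelium, stood at 2.75 on replicate 3 and at -3.42 to -2.22 on the other 7 arrays. The meninges list had a median of 0.52 and of -0.05 without both arrays, and the extracellular matrix list one of 0.18 and of -0.02. None of the choroid plexus or meninges markers had an unadjusted p under 0.05. Ccn1, a matrix protein of growing vessels, was an exception among the matrix genes, with -5.16, -4.78, -4.97 and -3.67 at Fe day 15 and -2.78, -3.23, -3.28 and -4.53 at Fe day 30, a difference of 1.19 ± 0.43. It was 1.45 without both arrays. The ependymal list had a median of 0.61, and of 0.19 without both arrays, where 11 of 13 members had a higher mean. Dnai1, a dynein chain of motile cilia, differed by 0.22 ± 0.09.

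Glial and immune lists differed between arrays more than between days. The microglia and macrophage list had a median of 0.06 over 22 members, complement one of -0.06 over 18, cytokines and chemokines one of 0.14 over 17, antigen presentation one of 0.25 over 18 (0.06 without both arrays) and interferon response genes one of -0.16 over 23. No member of these lists had an unadjusted p under 0.05. Tmem119, a marker of resident microglia, stood at -3.19, -2.66, -3.05 and -2.88 at Fe day 15 and at -3.06, -3.60, -2.84 and -3.94 at Fe day 30, a difference of -0.41 ± 0.24. The integrin chain Itgam stood at -0.94 on Fe day 15 replicate 4 and -1.37 on Fe day 30 replicate 3, against -3.74 to -2.73 on the other 6 arrays. With 1 high array in each group, the medians of these lists depend on which array is left out, and that of interferon response genes was -0.45 without Fe day 30 replicate 3 alone.

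Myelin genes had lower means at Fe day 30 in 16 of 22 members, with a median of -0.15. None had an unadjusted p under 0.05 with all arrays. Without both arrays that stood apart 18 of 22 had a lower mean, the median was -0.28 and 4 were lower at that p, against 3.44% of all features in the same fit. Mal, a proteolipid of myelin membranes, stood at 3.00, 2.81, 3.14 and 2.31 at Fe day 15 and at 2.49, 2.38, 2.43 and 2.56 at Fe day 30, and the low Fe day 15 value was that of replicate 4. Mag, the myelin-associated glycoprotein, differed by -0.39 ± 0.21 and by -0.57 without both arrays. Within slide 2 the median was -0.43, and within slide 3 the list differed the other way, with a median of 0.24. Of 9 oligodendrocyte precursor markers, 5 had a lower mean at Fe day 30, and the median was -0.02, with differences from -0.16 to 0.31. Pdgfra, which differed by 0.31 ± 0.12, was the 1 member higher at an unadjusted p under 0.05, against 2.25% of all features. Without both arrays no precursor marker was under that p.

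Astrocyte markers had a median of -0.06 over 16 members. At an unadjusted p under 0.05, 2 were higher and 1 lower, against 2.25% and 2.68% of all features. The thyroxine transporter Slco1c1, which endothelial cells also make, differed by 0.38 ± 0.12, tissue factor F3 by 0.37 ± 0.14, and the folate enzyme Aldh1l1 by -0.32 ± 0.13. Without both arrays that stood apart, 0 astrocyte markers were higher and 1 lower at that p, against 4.76% and 3.44% of all features. The median was then -0.02. Reactive astrocyte genes had a median of 0.08 over 19 members and of -0.01 without both arrays. Cd44, the hyaluronan receptor, stood at -0.57, -1.59, -0.94 and 0.21 at Fe day 15 and at -2.06, -1.82, -0.71 and -1.44 at Fe day 30, with groups that overlapped.

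Of 22 cytosolic chaperones of the heat shock response, 18 had a lower mean at Fe day 30, with a median of -0.11. At an unadjusted p under 0.05, 1 was lower, against 2.68% of all features. Without both arrays that stood apart the median was -0.19 and 3 members were lower at that p, against 3.44% of all features. Bag3, which hands damaged proteins to autophagy, stood at 2.41, 2.42, 2.64 and 1.97 at Fe day 15 and at 1.54, 1.59, 1.76 and 2.12 at Fe day 30, a difference of -0.60 ± 0.18 with a control mean of 1.91. Chordc1, a partner of Hsp90, differed by -0.38 ± 0.17. Among 21 genes of endoplasmic reticulum stress 9 had a higher and 12 a lower mean, and the median was -0.02, against -0.01 over all features. Atf4, the transcription factor made when translation is throttled, stood at 4.83 to 4.89 at Fe day 15 and at 4.60 to 4.75 at Fe day 30, beside a control mean of 4.66, a difference of -0.19 ± 0.07. Without both arrays 6 members of that list were lower at an unadjusted p under 0.05, against 3.44% of all features in that fit, and the median was -0.10.

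Glucocorticoid and circadian genes had lower means in 23 of 28 members, with a median of -0.15. At an unadjusted p under 0.05, 1 was lower, against 2.68% of all features. Without both arrays the median was -0.28, and 5 members were lower and 1 higher at that p, against 3.44% and 4.76% of all features. The hour of death is not given in the sources used here, and clock genes vary with it. Tsc22d3, a direct target of the glucocorticoid receptor, stood at 3.41, 3.36, 3.62 and 3.30 at Fe day 15 and at 2.74, 2.74, 3.04 and 3.39 at Fe day 30, a difference of -0.44 ± 0.16 with a control mean of 2.92. Fe day 30 replicates 1 and 2, the Fe day 30 arrays that shared no slide with Fe day 15, were the lowest. Replicate 4 lay among the Fe day 15 values, and within slide 3 the difference of Tsc22d3 was 0.03. On slide 2 Tsc22d3 stood at 3.41 on Fe day 15 replicate 1 and at 3.04 on Fe day 30 replicate 3. The list median differed by -0.18 within slide 2 and by 0.01 within slide 3. The clock gene Per1 differed by -0.28 ± 0.14, the target gene Zbtb16 by -0.40 ± 0.21 and the receptor gene Nr3c1 by 0.21 ± 0.11. The part of the slide in these values was not tested further.

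**Figure D4:**
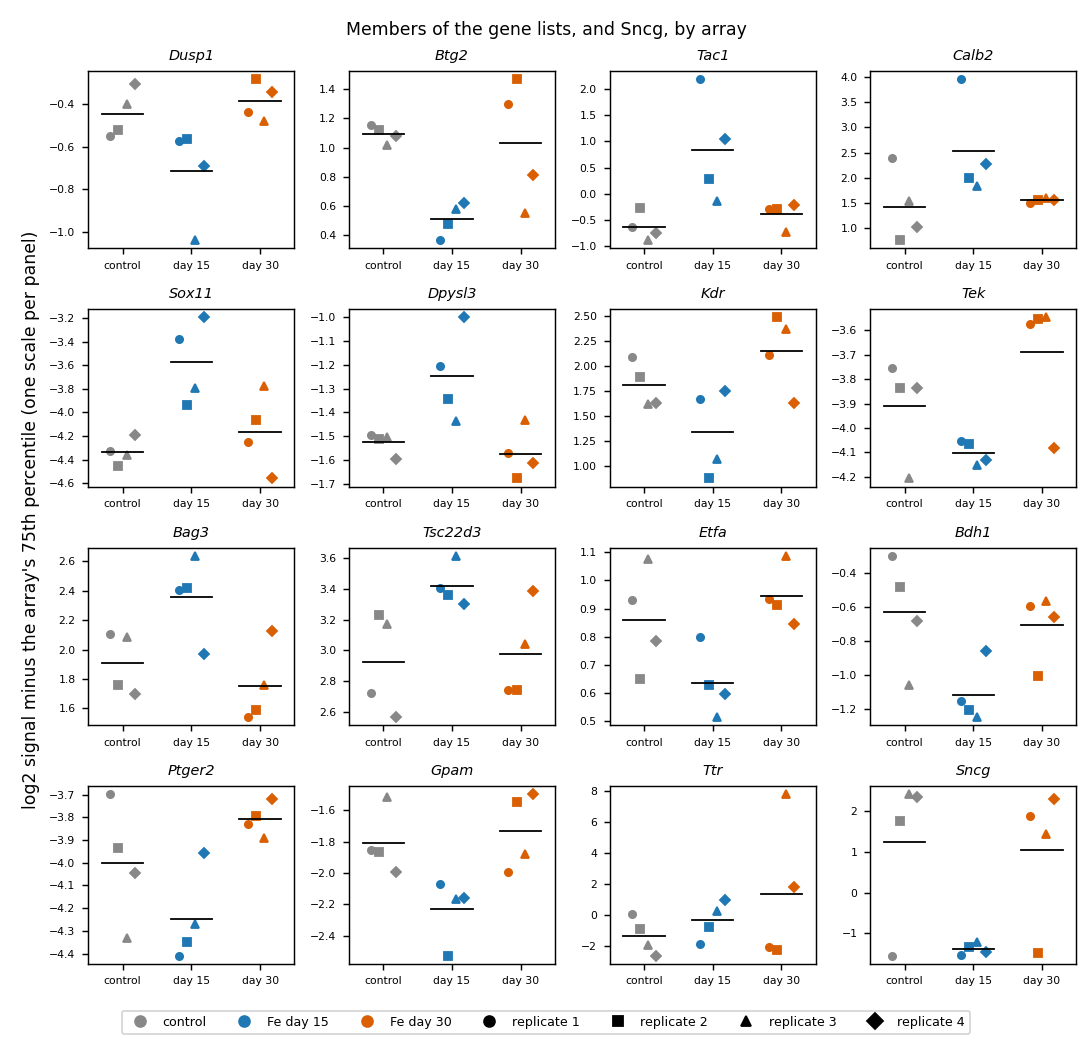
Level on each array (log2 signal minus the 75th percentile, 1 scale per panel) of 15 genes of the lists and of Sncg, for control, Fe day 15 and Fe day 30; marker shapes give the replicate and bars are means. Calb2 and Tac1 are high on single Fe day 15 arrays (3.97 and 2.20), Ttr on 1 Fe day 30 array (7.78), and Sncg takes a low or a high level with none between.

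Lipid genes, which the study's title names, had medians from -0.04 to 0.11, against -0.01 over all features. These were 0.00 for 26 genes of cholesterol synthesis, -0.04 for 33 of fatty acid and glycerolipid synthesis, 0.04 for 35 of fatty acid oxidation, -0.02 for 29 of lipid transport, 0.11 for 29 of eicosanoids and phospholipases, 0.03 for 34 of sphingolipids and -0.02 for 10 of endocannabinoids. In the eicosanoid and phospholipase list 19 of 29 members had a higher mean at Fe day 30, and its median was 0.05 without both arrays that stood apart and 0.01 without Fe day 30 replicate 3 alone. Ptger2, a receptor for prostaglandin E2, stood at -4.41, -4.35, -4.27 and -3.96 at Fe day 15 and at -3.83, -3.79, -3.89 and -3.72 at Fe day 30, a difference of 0.44 ± 0.11 with groups that did not overlap. Pla2g4a, the phospholipase that frees arachidonic acid, differed by 0.38 ± 0.14, and the lipoxygenase Alox15 by -0.91 ± 0.35.

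In all, 3 genes of fatty acid oxidation were higher at an unadjusted p under 0.05, and 0 of the 35 were lower, against 2.25% and 2.68% of all features. The median of the list was 0.00 without both arrays that stood apart and -0.01 without Fe day 30 replicate 3 alone. Etfa, an electron carrier of beta-oxidation, stood at 0.80, 0.63, 0.52 and 0.60 at Fe day 15 and at 0.94, 0.91, 1.09 and 0.85 at Fe day 30, a difference of 0.31 ± 0.09 with a control mean of 0.86. Bdh1, which makes and uses ketone bodies, differed by 0.41 ± 0.13, and Ppara, the nuclear receptor that drives this pathway, by 0.65 ± 0.25. Gpam, the first enzyme of triglyceride synthesis, stood at -2.07, -2.53, -2.17 and -2.16 and then at -1.996, -1.55, -1.88 and -1.499, a difference of 0.50 ± 0.15. Lpl, which releases fatty acids from lipoproteins, differed by 0.49 ± 0.18, the lipoprotein gene Apoa1 by -0.72 ± 0.34 and the sphingolipid desaturase Degs2 by 0.42 ± 0.14. In cholesterol synthesis Idi1 differed by 0.26 ± 0.12 and Pmvk by -0.16 ± 0.08.

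**Figure D5:**
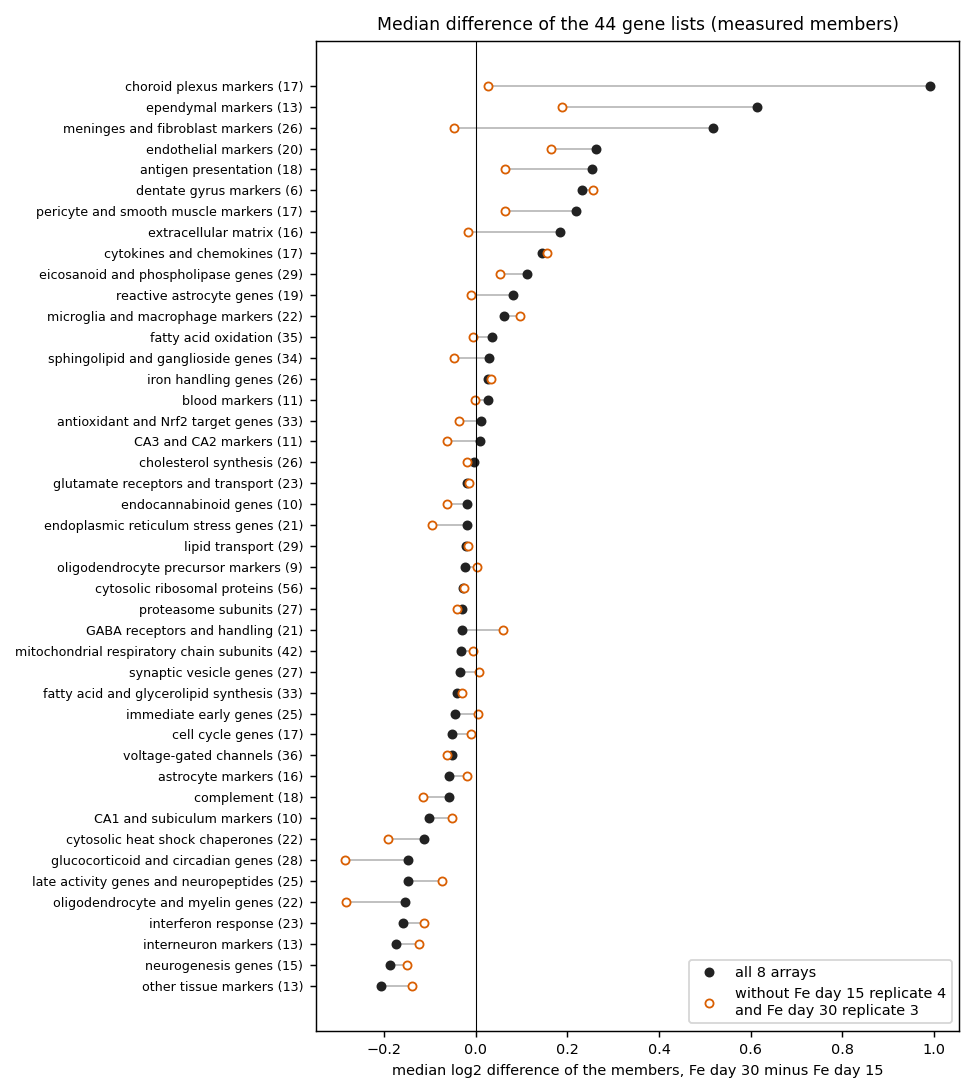
Median log2 difference, Fe day 30 minus Fe day 15, of the measured members of each of 44 gene lists (number of members in brackets), with all 8 arrays (filled) and without Fe day 15 replicate 4 and Fe day 30 replicate 3 (open). The choroid plexus median is 0.99 and 0.03, the meninges median 0.52 and -0.05, and the neurogenesis median -0.19 and -0.15.

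Genes that handle iron and oxidants had medians of 0.03 over 26 members and 0.01 over 33 members, and no member of either list had an unadjusted p under 0.05. Hfe, a regulator of hepcidin, differed by 1.15 ± 0.62, with -2.41 on Fe day 30 replicate 3 and -5.87 to -4.98 on the other 7 arrays. The metal transporter Slc39a8 differed by 0.21 ± 0.09, and its 3 probes disagreed, with -0.14 to 0.59. The secreted glutathione peroxidase Gpx3 differed by -0.64 ± 0.28. Housekeeping machinery varied little, with medians of -0.03 over 56 ribosomal proteins, -0.03 over 27 proteasome subunits and -0.03 over 42 respiratory chain subunits. The single-gene differences of these lists ran from -0.12 to 0.13, from -0.11 to 0.09 and from -0.14 to 0.13.

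The position of the saline controls was described for the features with the lowest p. The control mean was closer to the Fe day 30 mean than to the Fe day 15 mean for 53.4% of all features and for 62.7% of the 1353 features at an unadjusted p under 0.05. It was 64.9% for the 735 lower and 60.2% for the 618 higher at Fe day 30. Among the 24 genes named by the rule it was 12, with 4 of the 12 higher and 8 of the 12 lower. Without both arrays that stood apart these shares were 52.2% of all features and 57.1% of the 2250 at that p. The controls were killed on day 15 and shared the age of the Fe day 15 rats.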

How the data were processed

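RNA of 8 hippocampi was read on Agilent 1-colour arrays, scanned and quantified with Agilent Feature Extraction 9.5 per the submitters' processing notes. Per spot, the deposited files give, per the file headers, a background-subtracted intensity (the processed signal) and marks for spots above background. The deposited series table equalled that intensity in 100% of entries at a relative tolerance of 1e-06. The genome build and any scaling by the authors are not given in the sources used here.

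The processed signal was put on a log2 scale from the deposited intensity, minus the 75th percentile of each array. Spots with an outlier mark were left out. Of 41012 distinct probes, 122 that had no unmarked spot on some array of the study, the unused groups included, were dropped. Non-control probes well above background on all 4 arrays of Fe day 15 or of Fe day 30 were kept (30075). No spot was saturated. Of 20315 probes with a RefSeq accession 15141 matched 1 symbol of a RefSeq table on GRCr8, used for names alone. For 2181 genes with several probes, the probe of highest mean over the 8 arrays was used.

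The groups were compared with limma 3.58.1 in R 4.3.3, a 2-group fit of 8 arrays with 6 residual degrees of freedom and two-sided p-values, with calls at an adjusted p (Benjamini-Hochberg) under 0.05. Such p-values reflect the variation among these rats. The fit was tested on simulated data. Lists are described by counts and medians, with no test. Named were, per direction, called genes with groups that did not overlap, filled to 12 by lowest unadjusted p, and up to 4 members of lowest unadjusted p from each list, with markers of regions and of choroid plexus beside them. The members, lists and rules were chosen with earlier results of these data known. The mean pixel signal was not used here, so the alternative background correction (normexp, offset 50) started from the median pixel signal per the deposited files, a departure from the planned column. Replicate numbers were not treated as pairs in the main fit. Alternatives covered normalization, background, filter, slide, weights and left-out arrays.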

Additional observations from a re-analysis of the deposited data

Results flagged for a closer look

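Of 138 checks, 18 found 1 array of a group far from its 3 others (Dixon's test at 95%), where chance gives about 1 in 20. The checks are not independent, since 2 arrays account for most of them, and all values are log2.

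The choroid plexus list scored 5.56 on Fe day 30 replicate 3, that of meninges and fibroblasts 3.15, of extracellular matrix 1.51, of interferon response 1.28 and of reactive astrocyte genes 1.01, each above the other 3 arrays of that day. The scores of voltage-gated channels, glutamate genes and synaptic vesicle genes were below them, at -0.37, -0.33 and -0.30.

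On Fe day 15 replicate 4 the scores of microglia and macrophages (1.02), complement (1.02), cytokines and chemokines (0.62) and antigen presentation (0.58) were above the other 3. Those of fatty acid and glycerolipid synthesis (-0.17) and of glucocorticoid and circadian genes (-0.0074) were below them, as were Pdyn at 2.37 and Prr5 at -4.31. The remaining cases were small, an oligodendrocyte precursor score of 0.013 on Fe day 15 replicate 3 and an endoplasmic reticulum stress score of 0.11 on Fe day 30 replicate 1.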

How the results depend on the processing

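The count of called genes was 0 under each of 22 alternatives, except 1 gene (Sncg, 3.27, limma adjusted p 0.0156) without Fe day 30 replicate 2, so that leaving out 1 array gave 0 to 1. The counts at an unadjusted p under 0.05 ran from 440 to 1093 higher and from 511 to 835 lower when 1 array was left out, with 1093 higher without Fe day 30 replicate 3. They were 1322 higher and 1202 lower with array weights, 347 higher with normexp background, 445 lower with the replicate block, and, in alternatives chosen after seeing the data, 1307 higher without both arrays that stood apart and 1412 higher with arrays in position 2 of a slide alone. The deviations of same-numbered arrays of the 2 days correlated at -0.13, 0.00, -0.12 and -0.41, which gave no sign of pairing by number. Such correlations cannot exclude a pairing of the rats. Of 193 genes that the naming rule selects, 17 turned sign in an alternative. With slide as a fixed term these were Camp (-0.074), Cd44 (0.0028), Dhx58 (0.11), Fabp5 (0.039), Hbb (0.29), Hspa2 (0.022), Irf9 (0.11), Itgam (0.75), Rpl4 (-0.0034), Rps3 (0.055), Rpsa (0.028) and Sox6 (0.0014). Without Fe day 30 replicate 3 they were Cd14 (-0.15), Fcgr1a (-0.034), Il18 (-0.00022) and Necab2 (0.028), in position 2 alone Cd14 (-0.14), and without Fe day 15 replicate 4 Itgam (0.12) and Mx2 (0.061). Over all arrays left out in turn the differences ran from -0.15 to 0.55 for Cd14, -0.034 to 0.49 for Fcgr1a, -0.00022 to 0.54 for Il18, -0.88 to 0.12 for Itgam, -0.66 to 0.061 for Mx2 and -0.21 to 0.028 for Necab2. The cause was not tested, and the fit with slide as a fixed term compares the days within slides 2 and 3 alone. Of the 44 list medians, 12 turned sign without both arrays, 17 without Fe day 30 replicate 3 and 20 in position 2 alone. All Fe day 15 arrays lay in position 2, while Fe day 30 replicates 3 and 4 lay in position 4, so position and day partly coincide. The fit on position 2 alone kept only replicates 1 and 2 of Fe day 30. Groups of 4, 2 of them with an array apart, and the missing day 30 saline group limit the comparison.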

Other observations

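Sncg, which encodes gamma-synuclein, was chosen after its values were seen. It stood at -1.54, -1.34, -1.22 and -1.45 on the Fe day 15 arrays, at 1.89, -1.48, 1.45 and 2.31 on the Fe day 30 arrays and at -1.54, 1.77, 2.42 and 2.36 on the control arrays. The values formed a low and a high level with none between, and both levels occurred in the control and in the Fe day 30 group. Its difference was 2.43 ± 0.74 (SE, n = 4 and 4), which did not pass the threshold with all arrays (limma adjusted p 0.968).

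Markers of tissue outside the hippocampus were measured as well. Gh1, the growth hormone gene of the pituitary, stood at -4.81, -5.01, -2.75 and -5.26 at Fe day 15 and at -5.98, -5.54, -5.97 and -5.64 at Fe day 30, so that Fe day 15 replicate 3 was the highest. Th, the enzyme that makes catecholamines, differed by -0.69 ± 0.43 and the dopamine receptor Drd2 by -0.58 ± 0.32, with the highest Drd2 value, -3.36, on Fe day 15 replicate 1. The same array held the highest values of Tac1 and Calb2, at 2.20 and 3.97.

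Among blood markers the calprotectin subunit S100a9 stood at -5.18 to -4.64 at Fe day 15 and at -5.97, -5.10, -4.53 and -6.23 at Fe day 30, with a control mean of -5.90 and groups that overlapped. Across probes, 3 were well above background on 4 of 4 Fe day 30 arrays and 0 of 4 Fe day 15 arrays, and 2 the other way.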
